A study of Mus with 6 samples.

Results

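The 10 genes described here encode enzymes that make and break down sphingolipids, and all 10 were found by symbol among the 10995 genes of the deposited table. They were chosen as members of a textbook pathway and not by their values, although earlier results of these data were known. Sphingolipid synthesis starts at the endoplasmic reticulum, where serine palmitoyltransferase joins serine to palmitoyl-CoA and ceramide synthases add a further fatty acid. Ceramide is then carried forward into sphingomyelin or glucosylceramide, or is taken apart to sphingosine, which can be phosphorylated to sphingosine 1-phosphate (S1P) and finally cleaved. In T cells these lipids are components of the plasma membrane, and S1P is known as the signal that leads lymphocytes out of lymphoid organs.

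The RNA came from wild-type mouse CD4+ T cells of the spleen, which were taken as naive cells and activated in culture for 3 days. Activation was the same for all cultures, by anti-CD3 at 5 μg/mL with anti-CD28 at 2 μg/mL, in the presence of the growth factor IL-2 (100 U/mL). They differed in a neutralizing antibody to VEGF-B or a normal goat IgG control, each at 1 μg/mL, with 3 libraries per treatment. The comparison asks how the neutralization of VEGF-B alters gene expression in activated CD4+ T cells. The age of the mice, and whether the libraries of a treatment came from separate mice or cultures, were not given in the sources used here, so the p-values measure the spread between these libraries, which may be technical.

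Values were read as FPKM, fragment numbers corrected for how long a transcript is and for the size of the library, so that levels of different genes can be compared. FPKM carry no depth, and the precision set by counting is therefore unknown. Differences were tested as log2(FPKM + 1) with limma for the 8816 genes whose mean reached 1 FPKM. The p-values were adjusted over all of them (Benjamini-Hochberg), and genes under an adjusted p of 0.05 are those referred to as called. A log2 fold change is anti–VEGF-B against IgG on this scale, where the added 1 makes changes of weakly expressed genes look smaller. Across the tested genes its median was -0.15, and each change is also given relative to this median where it matters. Quantile normalization brought this median to 0.0077 and centring on library medians brought it to 0.049, and the share of lower genes among those called moved from 83.0% to 50.9% and 37.2%. All 7 T cell markers examined were present, summing to 484 to 516 FPKM with anti–VEGF-B and 504 to 598 with IgG. One of them, the IL-2 receptor α chain gene Il2ra, which rises on activation, was itself lower with anti–VEGF-B (58.3 ± 7.01 against 117 ± 28.9 FPKM, limma adjusted p = 0.00665), as was the CD3 chain gene Cd3e (log2 fold change -0.51, 0.0197). Cd3g (-0.43, 0.0621), Cd4 (0.034, 0.780), Cd3d (0.10, 0.337), Cd28 (0.12, 0.254) and Lck (0.0041, 0.976) did not pass. Cd8a was at most 0.182 FPKM, although Cd8b1 was at 2.27 to 4.51. Of the other markers named here, Ms4a1, Cd79a, Ncr1, Klrb1c, Itgam, Adgre1, Itgax and the erythroid genes had no row in the table, and Cd79b and Klrd1 were at most 1.34 and 0.512 FPKM. The 3 myeloid markers with a row (Lyz2, Csf1r and Cd68) summed to 10.9 to 12.1 FPKM with anti–VEGF-B and 12.4 to 27.0 with IgG, the highest being IgG replicate 3, where Lyz2 was at 16.4 FPKM against 3.26 to 4.19 in the other 5 libraries. Their part in the results was not tested. In RNA from a whole culture, fewer cells of a kind and less RNA per cell cannot be told apart.

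In the IgG libraries the most abundant member was Ugcg, at 27.3 ± 1.33 FPKM (SD, n = 3, as for every mean here), higher than 88.8% of the listed genes by its mean over all libraries. Degs1 (23.7 ± 11.4), Cers2 (15.2 ± 2.17) and Sgpl1 (13.4 ± 0.624) followed. The IgG libraries of each of these 4 genes overlapped those of the next, although every Ugcg value lay above every value of Cers2 and Sgpl1. Cers5 (9.83 ± 1.10) lay under Sgpl1 in every IgG library and overlapped Sptlc1 (7.64 ± 1.81). Sptlc2, at 3.65 ± 0.171 FPKM, was apart from Sptlc1 above it and from Cers6 below it. Cers6 (1.51 ± 0.193) and Sphk1 (1.32 ± 0.0784) overlapped, and Cers4 was the lowest at 0.855 ± 0.0978 FPKM. The order of the means was the same with anti–VEGF-B.

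**Figure D1:**
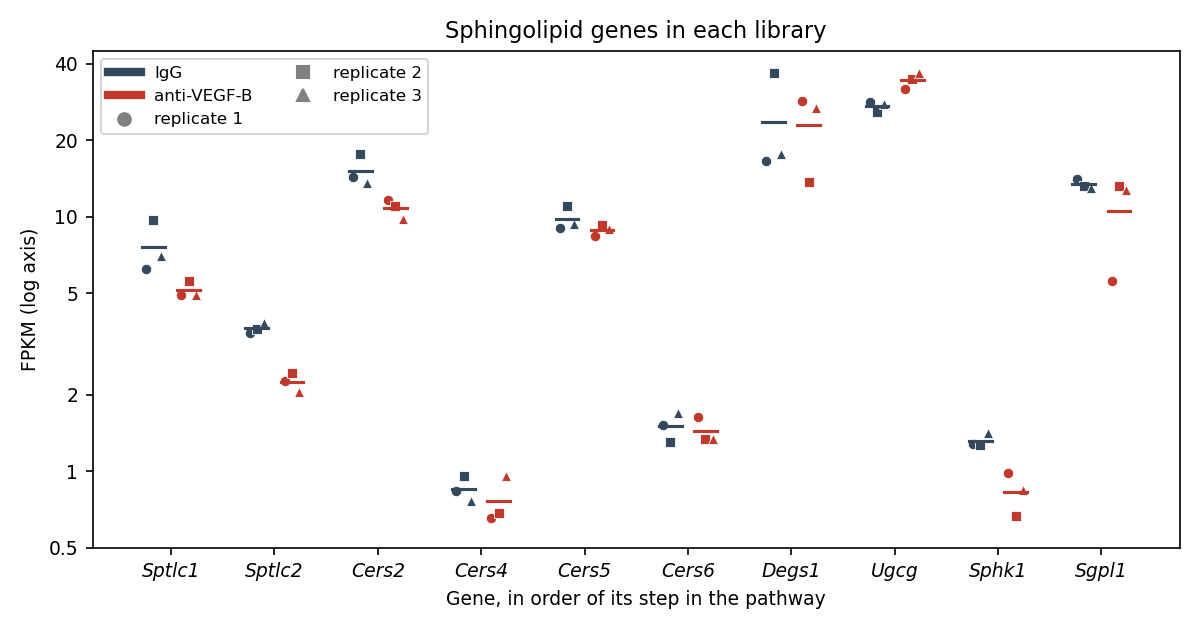
FPKM on a log axis of the 10 genes in each of the 6 libraries, with the symbol giving the replicate, the colour the treatment and the short line the mean of 3. For Sptlc1, Sptlc2, Cers2 and Sphk1 the 3 anti–VEGF-B libraries lie under the 3 IgG libraries, for Ugcg they lie above them, and Degs1 is split into high and low libraries within both treatments.

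With anti–VEGF-B, RNA for both large subunits of serine palmitoyltransferase, for the ceramide synthase Cers2 and for the sphingosine kinase Sphk1 was lower, and RNA for the glucosylceramide synthase Ugcg was higher. The other 5 members did not pass the test. The libraries of the treatments did not overlap in 5 of the 9 members above the filter, which were the called ones, against 49% of all tested genes. Of the 9 members above the filter 5 were called, 4 lower and 1 higher, where 28.7% of all tested genes were called in either direction, 23.8% lower and 4.87% higher. Sphk1 was above the filter only through its IgG libraries, so the count was also taken with no filter, where all 10 members were tested, 4 were lower and 1 was higher, and 24.4% of all genes were called, 20.6% lower. The log2 fold change was below 0 in 8 of the 9 members above the filter, against 71.2% of all tested genes. Over all 10 members the median log2 fold change was -0.24, against -0.15 over all listed genes. How many members were called depended on the scaling between libraries. After quantile normalization 2 members were called, Cers2 lower and Ugcg higher, and after median centring 2, Sptlc2 lower and Ugcg higher. Of all 8816 tested genes, quantile normalization gave 913 lower and 880 higher, and median centring 807 and 1365. The share of members called lower was then near that of all tested genes. Without anti–VEGF-B replicate 3, or without IgG replicate 2, 1 member was called, and without anti–VEGF-B replicate 2 or IgG replicate 3 it was 2 and 3. Of all tested genes 859, 1359, 1716 and 1853 were called in these fits, in the same order.

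**Figure D2:**
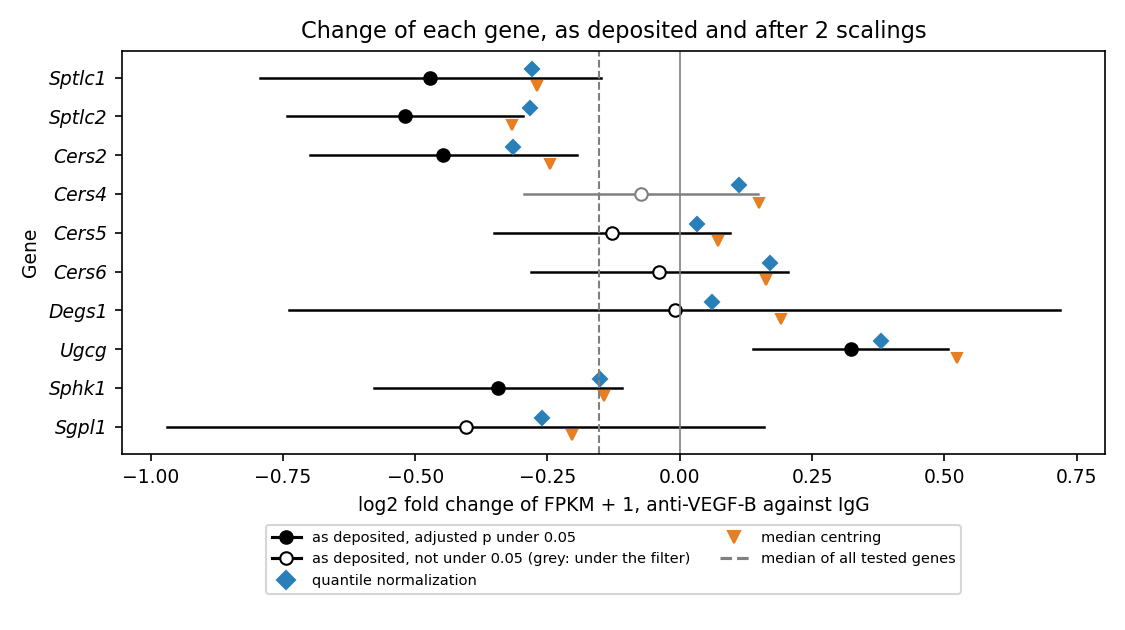
log2 fold change of FPKM + 1 for each gene, anti–VEGF-B against IgG, with its 95% confidence interval from limma (circles, filled where the adjusted p was under 0.05) and the same change after quantile normalization (diamonds) or median centring (triangles). The dashed line is the median of all tested genes, -0.15. Both scalings move most genes to the right, and Cers4, Cers5, Cers6 and Degs1 cross 0.

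Serine palmitoyltransferase, the enzyme of the first and rate-limiting step, has as its large subunits the products of Sptlc1 and Sptlc2, the latter catalytic. Sptlc2 (ENSMUSG00000021036.10, minus strand of chromosome 12 of GRCm38, 87305058 to 87388355) was at 2.26, 2.44 and 2.05 FPKM in the anti–VEGF-B libraries and at 3.49, 3.62 and 3.83 in the IgG libraries. The groups were well apart, with the highest anti–VEGF-B library under the lowest IgG library. The mean fell from 3.65 ± 0.171 to 2.25 ± 0.194 FPKM, a log2 fold change of -0.52 (SE, standard error, 0.0990, limma adjusted p = 0.00936), or -0.37 relative to all genes, and 10.2% of tested genes had a lower one. Of the members it had the lowest p and kept an adjusted p under 0.05 in each of the 6 fits that left out 1 library (0.0151 to 0.0428, limma). After quantile normalization its log2 fold change was -0.28 with an adjusted p of 0.0561 in limma, against 0.00908 to 0.0693 over all alternatives.

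Sptlc1 (ENSMUSG00000021468.8, minus strand of chromosome 13, 53332748 to 53377397) was at 4.94, 5.58 and 4.94 FPKM with anti–VEGF-B and at 6.24, 9.68 and 7.0 with IgG. The groups did not overlap, but IgG replicate 2 stood above the other IgG libraries. The mean fell from 7.64 ± 1.81 to 5.15 ± 0.371 FPKM (log2 fold change -0.47, SE 0.143, limma adjusted p = 0.0373). Without IgG replicate 2 the log2 fold change was -0.31 (limma adjusted p = 0.0745), and of the 6 fits without 1 library only that without IgG replicate 1 kept the call. The adjusted p also passed the threshold after neither scaling (0.119 and 0.103) and ran from 0.0223 to 0.144 over the alternatives. Sptlc1 exceeded Sptlc2 in every library, and the log2 ratio of Sptlc2 to Sptlc1 was -1.13, -1.20 and -1.27 with anti–VEGF-B and -0.84, -1.42 and -0.87 with IgG. These ratios overlapped and differed by -0.16 on average (two-sided exact permutation test, p = 0.4, adjusted p = 0.514 over the 9 shares and ratios compared).

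The genes whose values over the 6 libraries were most like those of Sptlc2 were sought among the 8816 tested genes by the mean absolute difference of log2(FPKM + 1), centred over the libraries. The nearest were Kbtbd7 (0.0309), Heatr3 (0.0309) and Pip4k2a (0.0319), whose log2 fold changes were -0.50, -0.47 and -0.49.

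Ceramide synthases add the fatty acid to the sphingoid base, and each prefers acyl chains of other lengths. CERS2 makes ceramides with very long chains, CERS4 long ones, and CERS5 and CERS6 mainly those with palmitate. Cers2 (ENSMUSG00000015714.11, plus strand of chromosome 3, 95314791 to 95323599) was at 11.7, 11.0 and 9.85 FPKM with anti–VEGF-B and at 14.3, 17.7 and 13.6 with IgG. Every anti–VEGF-B library was under every IgG library. The mean fell from 15.2 ± 2.17 to 10.8 ± 0.918 FPKM (log2 fold change -0.45, SE 0.112, limma adjusted p = 0.0199), or -0.29 relative to all genes. The adjusted p was 0.0742 without anti–VEGF-B replicate 3 and 0.0505 without IgG replicate 2, and it was 0.0737 after median centring but 0.0460 after quantile normalization (limma, 0.0195 to 0.102 over the alternatives). The gene overlaps the spans of 3 other protein-coding genes in RefSeq, among them Anxa9 and Setdb1, and as the sources do not say whether reads were counted by strand, reads in the shared parts cannot be assigned with certainty.

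The other ceramide synthase genes did not pass the test. Cers5 (ENSMUSG00000023021.15, minus strand of chromosome 15, 99734881 to 99772885) was at 8.38, 9.32 and 8.96 FPKM with anti–VEGF-B and at 9.04, 11.1 and 9.38 with IgG. Its log2 fold change was -0.13 (95% confidence interval -0.35 to 0.094, limma adjusted p = 0.341), close to the median of all genes, and above 0 after both scalings. Cers6 (ENSMUSG00000027035.10, plus strand of chromosome 2, 68861441 to 69114282) was at 1.64, 1.34 and 1.33 FPKM against 1.52, 1.3 and 1.69. The groups overlapped almost fully, with a log2 fold change of -0.038 (-0.28 to 0.20, limma adjusted p = 0.803) that was above 0 after both scalings and without IgG replicate 3. Cers4 (ENSMUSG00000008206.16, plus strand of chromosome 8, 4493026 to 4531680) was under the filter, at 0.657, 0.684 and 0.960 FPKM against 0.839, 0.960 and 0.766. Taken from the fit without the filter, it also overlapped, with a log2 fold change of -0.073 (-0.29 to 0.15, limma adjusted p = 0.592) that was above 0 after both scalings. The spans of Cers4, Cers6 and Sptlc2 each overlap a non-coding gene in RefSeq.

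Because the share of each gene in the summed FPKM of the 4 ceramide synthases does not depend on a common factor between libraries, the make-up was compared within libraries. The sum was 22.3, 22.4 and 21.1 FPKM with anti–VEGF-B and 25.7, 31.0 and 25.5 with IgG. Cers2 made up 52.2%, 49.3% and 46.7% of it with anti–VEGF-B and 55.7%, 57.0% and 53.5% with IgG. The share of Cers2 was thus lower in every anti–VEGF-B library, by 6.0 percentage points on average (49.4 ± 2.76% against 55.4 ± 1.76%). Cers5 held the larger part of the remainder, with 37.5%, 41.7% and 42.5% against 35.2%, 35.7% and 36.9%. Its share was higher in every anti–VEGF-B library, by 4.64 percentage points on average. As the shares are parts of a whole, this is not independent of the lower share of Cers2. The mean FPKM of Cers5 itself was not higher with anti–VEGF-B (8.89 ± 0.470 against 9.83 ± 1.10). For each of these shares a two-sided exact permutation test gave p = 0.1, the smallest that 3 against 3 libraries allow (adjusted p = 0.45 over the 9 shares and ratios), so the design could not bring them past the threshold. The shares of Cers6 (6.56 ± 0.701% and 5.59 ± 1.25%) and Cers4 (3.52 ± 0.897% and 3.12 ± 0.130%) overlapped between treatments (exact permutation tests, p = 0.4 and p = 0.9).

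**Figure D3:**
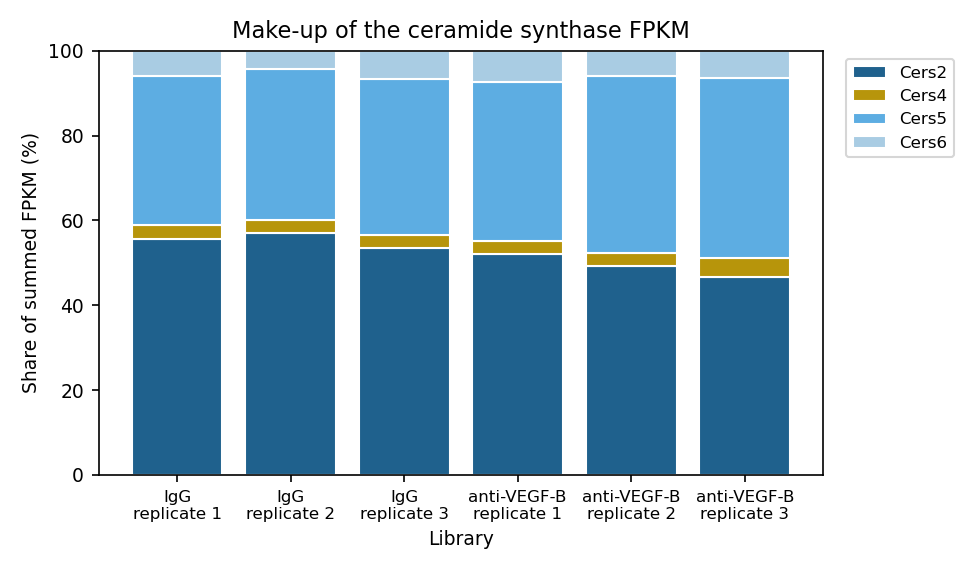
Share of Cers2, Cers4, Cers5 and Cers6 in their summed FPKM, in percent, as 1 stacked bar for each library. The lowest part, Cers2, is at 53.5% to 57.0% in the IgG libraries and at 46.7% to 52.2% in the anti–VEGF-B libraries.

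Dihydroceramide desaturase, encoded by Degs1, introduces the double bond that turns dihydroceramide into ceramide. Degs1 (ENSMUSG00000038633.5, minus strand of chromosome 1, 182275772 to 182282804) was at 28.6, 13.7 and 26.8 FPKM with anti–VEGF-B and at 16.6, 36.8 and 17.6 with IgG. In both treatments replicate 2 stood on the far side of the other libraries, low with anti–VEGF-B and high with IgG, so that the spread within a treatment far exceeded the difference between them. The log2 fold change was -0.0097 (95% confidence interval -0.74 to 0.72, limma adjusted p = 0.985). Without anti–VEGF-B replicate 2 it was 0.31 and without IgG replicate 2 it was 0.34 (adjusted p = 0.445 and 0.384, limma), while it was 0.062 after quantile normalization and 0.19 after median centring, so no direction can be given. No other gene of the RefSeq annotation overlaps Degs1. The log2 ratio of Degs1 to Sptlc1 was 2.53, 1.3 and 2.44 against 1.41, 1.93 and 1.33, with overlapping groups (exact permutation test, p = 0.4).

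Glucosylceramide synthase, encoded by Ugcg, transfers glucose to ceramide and opens the path to the glycosphingolipids, gangliosides included. Ugcg (ENSMUSG00000028381.8, plus strand of chromosome 4, 59189257 to 59222833) was at 31.8, 34.8 and 36.8 FPKM with anti–VEGF-B and at 28.4, 25.8 and 27.7 with IgG. It was the member with all anti–VEGF-B libraries above all IgG libraries, where 10.5% of tested genes showed that order and 38.5% the opposite one. The mean rose from 27.3 ± 1.33 to 34.4 ± 2.51 FPKM (log2 fold change 0.32, SE 0.0815, limma adjusted p = 0.0206), or 0.47 relative to all genes, and 95.5% of tested genes had a lower log2 fold change. The rise was larger after quantile normalization (0.38, limma adjusted p = 0.0240) and median centring (0.52, adjusted p = 0.0108), and Ugcg was the member called under both. The adjusted p was 0.0520 without anti–VEGF-B replicate 2, 0.0814 without anti–VEGF-B replicate 3 and 0.0619 without IgG replicate 2 (limma, 0.0108 to 0.0826 over the alternatives).

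Ceramide that is not glucosylated can become sphingomyelin, and the log2 ratio of Ugcg to the sphingomyelin synthase gene Sgms1 was compared for that reason. It was 3.75, 4.05 and 4.04 with anti–VEGF-B and 3.78, 3.68 and 3.56 with IgG. The lowest anti–VEGF-B library lay within the IgG libraries, and the difference of 0.27 did not pass (two-sided exact permutation test, p = 0.2, adjusted p = 0.45). Sgms1 itself was at 2.23 ± 0.133 and 2.14 ± 0.183 FPKM (log2 fold change 0.043, limma adjusted p = 0.760), and Sgms2, the other sphingomyelin synthase gene, did not pass either (-0.33, 0.0605).

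Sphingosine kinase 1 makes S1P from sphingosine, and S1P lyase, encoded by Sgpl1, cleaves S1P in the step by which sphingolipids leave the pathway for good. Sphk1 (ENSMUSG00000061878.15, plus strand of chromosome 11, 116530925 to 116536674) was at 0.981, 0.668 and 0.845 FPKM with anti–VEGF-B and at 1.28, 1.27 and 1.41 with IgG. The groups did not overlap, at levels near the filter. The mean fell from 1.32 ± 0.0784 to 0.831 ± 0.157 FPKM (log2 fold change -0.34, SE 0.104, limma adjusted p = 0.0372), or -0.19 relative to all genes. This call was lost after quantile normalization (-0.15, limma adjusted p = 0.335) and median centring (-0.14, 0.345), and in 5 of the 6 fits without 1 library, all but that without anti–VEGF-B replicate 1 (limma, 0.0352 to 0.345 over the alternatives).

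Sgpl1 (ENSMUSG00000020097.14, minus strand of chromosome 10, 61098642 to 61147703) was at 5.60, 13.2 and 12.7 FPKM with anti–VEGF-B and at 14.1, 13.2 and 12.9 with IgG. A single library, anti–VEGF-B replicate 1, stood far under the other 5, which lay between 12.7 and 14.1 FPKM. The log2 fold change was -0.40 (95% confidence interval -0.97 to 0.16, limma adjusted p = 0.238), and -0.044 without that library (limma adjusted p = 0.752). The log2 ratio of Sphk1 to Sgpl1 was -2.51, -4.31 and -3.91 against -3.47, -3.37 and -3.20. The library with low Sgpl1 was again the one apart, the other 2 anti–VEGF-B libraries lay under the IgG libraries, and the difference of -0.23 was -0.76 without that library and 0.13 without anti–VEGF-B replicate 2 (exact permutation test over all libraries, p = 0.8).

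**Figure D4:**
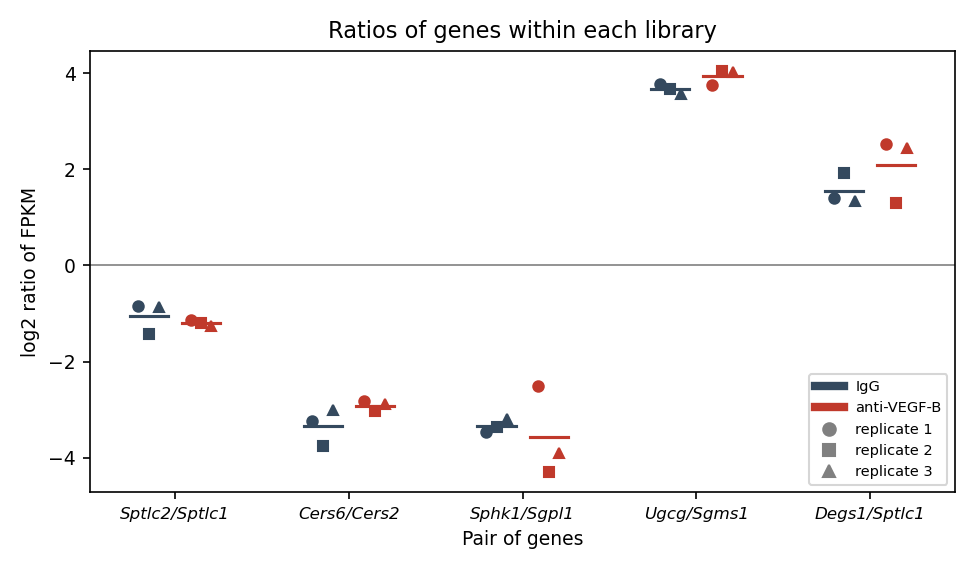
log2 ratio of the FPKM of 2 genes within each library, for 5 pairs that share a complex, a substrate or a step order, with the symbol giving the replicate and the short line the mean of 3. The ratio of Cers6 to Cers2 is -2.92 ± 0.108 with anti–VEGF-B and -3.33 ± 0.385 with IgG, and in all 5 pairs the treatments overlap.

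A wider list of 64 genes of the same pathway was examined beside the members, of which 47 had a row in the table and 39 a mean of at least 1 FPKM. Of the 39, 13 were lower and 1 was higher at an adjusted p under 0.05 (limma), against 23.8% and 4.87% of all tested genes. Some of the lower genes, such as Smpd4, B3galt4 and Asah1, passed the filter only through their IgG libraries. With no filter 13 of the 47 were lower and 1 was higher, where 20.6% of all listed genes were called lower. These 13 were not all the same genes, as some of them were under the filter. The median log2 fold change of the 47 was -0.23 against -0.15 over all listed genes. The count was 4 lower and 1 higher of the 39 after quantile normalization and 4 lower and 2 higher after median centring. Over all 8816 tested genes these scalings gave 913 lower and 880 higher, and 807 lower and 1365 higher. The list's share of lower genes was then near that of all tested genes. B4galt5, B4galnt1 and Asah1 (lower) and Spns2 (higher) were called under both scalings.

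In de novo synthesis Kdsr, the reductase that acts between serine palmitoyltransferase and the ceramide synthases, was at 1.35, 1.64 and 1.40 FPKM with anti–VEGF-B and at 2.16, 2.97 and 2.49 with IgG. It fell by 0.52 on the log2 scale (limma adjusted p = 0.0141), and its log2 fold change was -0.28 with quantile normalization (adjusted p = 0.0560), -0.32 with median centring (0.0361), and -0.60 to -0.43 in the fits without 1 library. Of these, the fit without anti–VEGF-B replicate 3 lost the call (0.0539). On the log2(FPKM + 1) scale its change was the same to 2 decimals as that of Sptlc2, the enzyme subunit of the step before. The ratio of mean FPKM, anti–VEGF-B to IgG, was however 0.576 for Kdsr and 0.616 for Sptlc2. A log2 fold change lower than that of Kdsr was found in 10.3% of tested genes. Sptssa, which encodes a small activating subunit of serine palmitoyltransferase, did not pass (log2 fold change 0.098, limma adjusted p = 0.615). None of the 3 ORMDL genes, whose proteins restrain serine palmitoyltransferase, passed by limma. The log2 fold change of Ormdl2 was -0.36 (adjusted p = 0.0512), that of Ormdl1 -0.12 (0.366) and that of Ormdl3, the most abundant at 34.8 ± 2.89 FPKM with IgG, -0.085 (0.439). Of these genes Ormdl2 alone had an unadjusted p under 0.05 (limma, 0.0149), as had 3806 of all 8816 tested genes.

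Beyond Ugcg, 4 of the 5 tested genes of glycosphingolipid synthesis and transfer were called lower, against 23.8% of all tested genes. One of the 4, B3galt4, passed the filter only through its IgG libraries. Of this role 7 genes were listed, and those under the filter were not called in the fit without it. B4galt5, which encodes a lactosylceramide synthase acting on the product of Ugcg, was at 1.42, 1.36 and 1.36 FPKM with anti–VEGF-B and at 2.74, 3.07 and 2.58 with IgG (log2 fold change -0.67, SE 0.0986, limma adjusted p = 0.00511). B4galnt1, the synthase of the gangliosides GM2 and GD2, was at 7.58, 7.54 and 5.63 FPKM against 11.6, 16.7 and 12.1 (-0.86, adjusted p = 0.00756). Both genes kept an adjusted p under 0.05 after either scaling and in all 6 fits without 1 library. B3galt4 (-0.45) and the glycolipid transfer protein gene Gltp (-0.43) had adjusted p of 0.0243 and 0.0177 from limma, which quantile normalization turned to 0.145 and 0.0434 and median centring to 0.145 and 0.0908. St8sia1, a ganglioside sialyltransferase gene, did not pass (-0.11, adjusted p = 0.568), and its log2 fold change was above 0 after both scalings.

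Of 9 listed genes for the breakdown of sphingomyelin and ceramide 5 were tested, and 2 were called lower, against the same 23.8% of all tested genes. Both of these, Asah1 and Smpd4, passed the filter only through their IgG libraries. The filter thus favoured such genes, and no conclusion is drawn from this share. Asah1, the lysosomal acid ceramidase, had the largest fall among the members and the wider list together in the fit as deposited. It was at 1.09, 1.01 and 0.759 FPKM with anti–VEGF-B and at 2.05, 3.79 and 2.77 with IgG, a log2 fold change of -0.97 (SE 0.162, limma adjusted p = 0.00711), and 0.896% of all tested genes had a lower one. It was called after either scaling and in all 6 fits without 1 library. Smpd4, a neutral sphingomyelinase gene, had a log2 fold change of -0.33 (limma adjusted p = 0.0449) and was not called after either scaling. Smpd1, the acid sphingomyelinase, was at 23.4 ± 1.85 and 24.0 ± 1.52 FPKM (-0.035, adjusted p = 0.775), and Acer2, a further ceramidase gene, had -0.034 (adjusted p = 0.80).

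Among 12 tested genes for the breakdown of glycosphingolipids, most of them lysosomal, 3 were called lower, a share of 25% that is near the 23.8% of all tested genes. These were the sialidase genes Neu3 (log2 fold change -0.45, limma adjusted p = 0.0307) and Neu1 (-0.33, 0.0386) and Hexa, a subunit of β-hexosaminidase (-0.40, 0.0416), none of them called after either scaling.

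Genes of S1P production, removal, export and sensing did not move one way. Of 8 tested genes of this role in the wider list 3 were called lower and 1 higher, against 23.8% and 4.87% of all tested genes. Sphk2, the other sphingosine kinase gene, was at 1.48, 1.41 and 0.767 FPKM with anti–VEGF-B and at 1.91, 3.08 and 2.04 with IgG, a log2 fold change of -0.59 (limma adjusted p = 0.0324, 0.107 after quantile normalization and 0.0749 after median centring). Spns2, an S1P exporter, was at 3.07, 2.89 and 3.23 FPKM with anti–VEGF-B and at 2.02, 2.11 and 2.16 with IgG. It rose by 0.39 on the log2 scale (SE 0.0951, limma adjusted p = 0.0181), and by 0.63 after quantile normalization and 0.59 after median centring (adjusted p = 0.00680 and 0.00592), while its adjusted p was 0.0740 without anti–VEGF-B replicate 3. S1pr1, the receptor through which lymphocytes sense S1P on leaving lymphoid organs, was at 1.75, 1.43 and 1.53 FPKM against 2.00, 2.72 and 2.18 (-0.36, adjusted p = 0.0460), and Plpp1, a lipid phosphatase gene, had -0.31 (adjusted p = 0.0402). Neither was called after either scaling. Plpp2, another gene of this role, had 0.42 and did not pass (limma adjusted p = 0.0629), but it was called higher after median centring (0.63, 0.0342). S1pr4, the S1P receptor with the highest FPKM in these libraries, was at 33.1 ± 4.12 and 41.0 ± 3.66 FPKM and did not pass (-0.31, adjusted p = 0.0572).

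**Figure D5:**
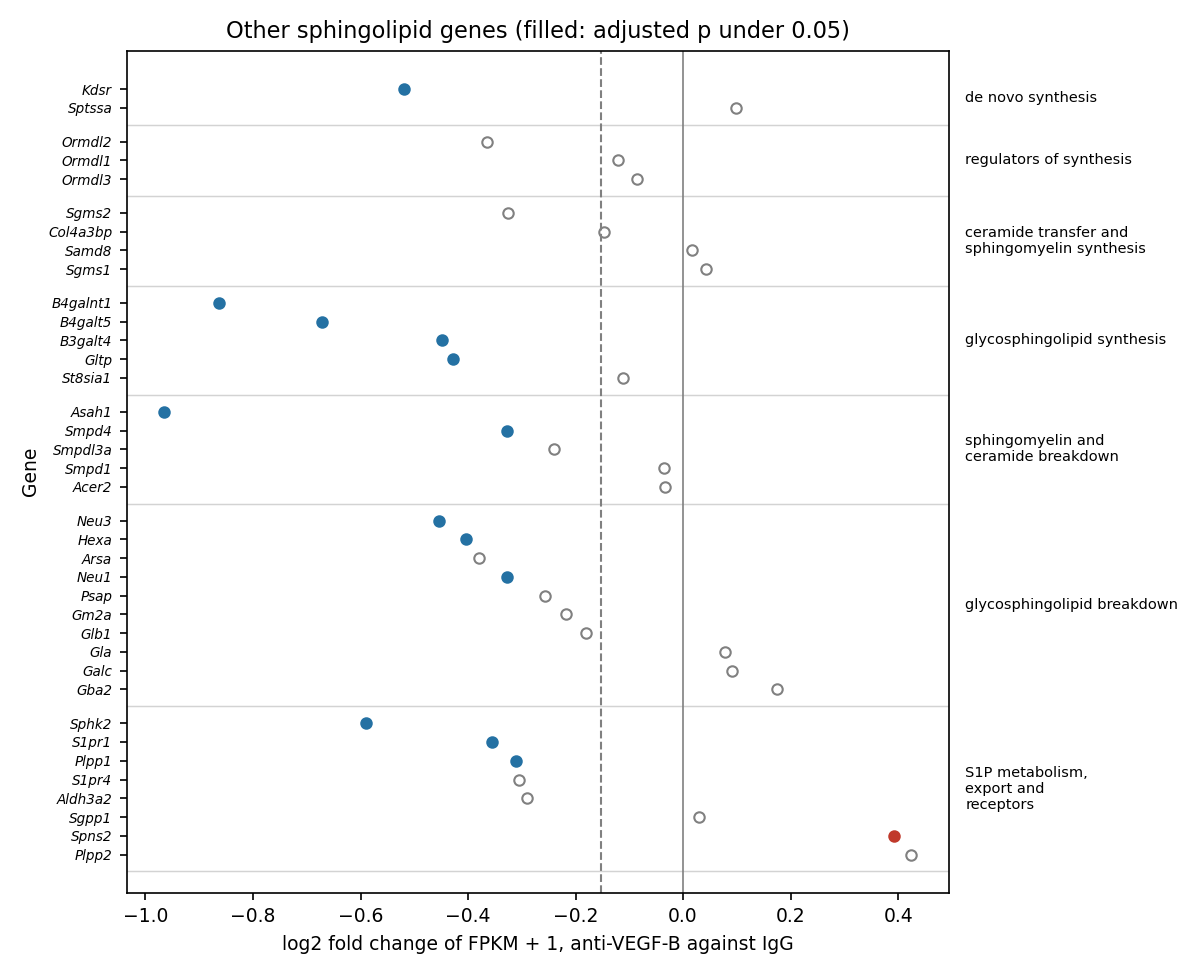
log2 fold change of FPKM + 1, anti–VEGF-B against IgG, of 37 of the 39 tested genes of the wider list, grouped by role, with filled points for an adjusted p under 0.05 and the median of all tested genes as a dashed line. Asah1 (-0.97), B4galnt1 (-0.86) and B4galt5 (-0.67) lie farthest to the left, and Spns2 (0.39) is the filled point on the right.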

How the data were processed

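Per the methods and the labels, reads of strand-specific libraries were aligned with hisat2 (GRCm38), assembled with StringTie and quantified with Ballgown by the authors, who deposited 1 table of 10995 protein-coding genes. Its unit is not stated. Its name speaks of raw data, and raw counts appear in the methods, yet its values are fractional. It was read as FPKM, the measure that Ballgown gives, so the unit of what the authors deposited remains uncertain. No normalization between libraries is stated. Among genes with low values (under 0.3 FPKM), at most 1.38% shared a ratio between libraries, so whole reads were not recovered and depth is unknown. The 6 columns were matched to samples by their labels.

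log2(FPKM + 1) was fitted with limma 3.58.1 in R 4.3.3 (empirical Bayes with trend, no covariate, two-sided), which was also tested on simulated data. Shares and ratios within libraries were compared with exact permutation tests. Overlaps with other genes were read from RefSeq for GRCm38. The members, the wider list, the markers and the tests were chosen with earlier results of these data known. All members were named, together with wider-list genes at an adjusted p under 0.05 (at most 4 for each role and direction), the genes of the same enzyme family or complex as a member, and the 3 genes nearest to the member with the lowest p. Other genes named as not passing were picked after their values were seen. Alternatives changed the scaling, filter, pseudocount, moderation, call, replicate block and libraries. A few genes of the wider list and the marker lists are not reported here by name.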

Additional observations from a re-analysis of the deposited data

How the results depend on the processing

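The number of members called (5) was 2 after quantile normalization, 2 after median centring, 3 with a mean of at least 5 FPKM, 1 where a call needed an absolute log2 fold change over 0.5 and an unadjusted p under 0.05, and 1 to 4 without 1 library. The wider list (14) gave 5, 6, 3, 5 and 3 to 13 in the same order. With a mean of at least 5 FPKM only 6 members, 18 genes of the wider list and 4927 genes in all were tested. Sptlc2 and Sphk1 were under that filter, and the called members above it (Sptlc1, Cers2 and Ugcg) stayed called. All tested genes (2528) gave 1793 after quantile normalization, 2172 after median centring and 1331 with the stricter filter. They gave 1121 at the fold change limit and 859 to 2467 without 1 library. With no moderation of the variance limma called 0 members, 0 genes of the wider list and 12 genes in all. The unadjusted p was then under 0.05 for 4 members, 17 genes of the wider list and 3208 of all 8816 genes, against 5, 22 and 3806 with moderation. Calls lost after quantile normalization were Sptlc1 (-0.28), Sptlc2 (-0.28) and Sphk1 (-0.15), after median centring Sptlc1 (-0.27), Cers2 (-0.25) and Sphk1 (-0.14), and with no moderation Sptlc1 (-0.47), Sptlc2 (-0.52), Cers2 (-0.45), Ugcg (0.32) and Sphk1 (-0.34). Without 1 library the log2 fold change ran from -0.59 to -0.31 for Sptlc1, -0.52 to -0.34 for Cers2, 0.28 to 0.38 for Ugcg and -0.40 to -0.28 for Sphk1. Among genes not called, the sign turned after quantile normalization and median centring for Cers4 (0.11 and 0.15), Cers5 (0.032 and 0.073), Cers6 (0.17 and 0.16) and Degs1 (0.062 and 0.19), and without 1 library Cers6 ran from -0.097 to 0.014 and Degs1 from -0.21 to 0.34. The difference between treatments in the log2 ratio of Ugcg to Sgms1, 0.27 as deposited, was -0.019 after quantile normalization. The cause was not tested. Libraries with the same number were not known to be paired. Their deviations correlated at -0.030, 0.11 and 0.089, against -0.17 to 0.10 for libraries with different numbers. These values cannot settle whether they were paired. With the replicate block 2578 genes and 4 members were called, and Sphk1 was lost (-0.34, adjusted p = 0.0505 from limma). With no counts, depth sets no stated limit here.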

Other observations

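A few ratios were formed after the values were seen and are given as a description with no test. Each holds a gene that had already been called, so the distance between the treatments in these ratios adds no support. The FPKM of Ugcg exceeded that of B4galt5, whose enzyme adds galactose to glucosylceramide, by 22.4, 25.5 and 27.0 times with anti–VEGF-B and by 10.3, 8.41 and 10.7 times with IgG, so that a ratio which no common factor between libraries can alter was 25.0 ± 2.36 against 9.83 ± 1.25 (SD, n = 3 each). The ratio of the exporter gene Spns2 to Sphk1 was 3.13, 4.33 and 3.82 against 1.58, 1.66 and 1.53. The ratio of the acid ceramidase gene Asah1 to the acid sphingomyelinase gene Smpd1, both lysosomal, was 0.0453, 0.0407 and 0.0355 against 0.0881, 0.147 and 0.120.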
